A study of Homo sapiens with 12 samples.

Results

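Interferon-stimulated genes are the transcripts that cells raise after an interferon has bound its receptor. A list of 41 such genes was followed in Ewing sarcoma cells exposed to mithramycin, and 40 of them were measured, out of 19775 genes for which the arrays carry a probe set naming that gene alone. STAT2 was not analysed here. Each gene was represented by its probe set with the highest mean over the 12 arrays. The members were listed by name, with earlier results of these data known.

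The arrays came from TC32 and TC71, established Ewing sarcoma cell lines. Such tumours are driven by a fusion of EWSR1 with an ETS factor gene, most often FLI1. Each line received either 100 nM mithramycin, which binds to GC-rich DNA, or the solvent alone as control, and RNA was taken after 6 h. Each of the 4 groups held 3 arrays, which the labels call biological replicates, so the errors describe dishes of 1 line and not separate tumours. No group received interferon, and a lower transcript level in such bulk RNA cannot be told apart from fewer cells that make it.

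In the textbook pathway, a bound receptor activates JAK family kinases, which phosphorylate STAT proteins. STAT proteins together with IRF9 bind the interferon-stimulated response element, whose core repeats the letters GAAA, while type II interferon acts through the gamma activated site, best known at IRF1. RNA or DNA sensed inside the cell reaches many of the same genes through IRF3 and IRF7.

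Promoters of members that rose show what these elements look like. RefSeq promoter windows on GRCh38.p14 were held for 29 of the 41 members. The 170 bases before the annotated start are given 5′ to 3′ on the gene's strand for 6 genes higher in both lines (for TAP1, 1 of its 2 windows), with each match to GAAANNGAA, or to its reverse TTCNNTTTC, in capitals.
ISG15 (chr1:1013327-1013496, plus strand): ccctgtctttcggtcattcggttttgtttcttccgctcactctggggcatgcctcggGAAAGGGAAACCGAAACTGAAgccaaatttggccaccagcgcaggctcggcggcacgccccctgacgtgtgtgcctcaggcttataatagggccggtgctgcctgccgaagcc
IFI6 (chr1:27672193-27672362, minus strand): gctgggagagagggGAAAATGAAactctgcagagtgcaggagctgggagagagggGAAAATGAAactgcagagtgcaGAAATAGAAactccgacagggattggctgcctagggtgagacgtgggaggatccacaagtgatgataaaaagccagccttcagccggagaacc
IFIT1 (chr10:89392453-89392622, plus strand): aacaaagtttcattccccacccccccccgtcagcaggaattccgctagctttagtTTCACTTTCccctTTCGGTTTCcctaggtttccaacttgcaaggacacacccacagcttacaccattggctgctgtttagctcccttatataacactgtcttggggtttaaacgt
IFIH1 (chr2:162318685-162318854, minus strand): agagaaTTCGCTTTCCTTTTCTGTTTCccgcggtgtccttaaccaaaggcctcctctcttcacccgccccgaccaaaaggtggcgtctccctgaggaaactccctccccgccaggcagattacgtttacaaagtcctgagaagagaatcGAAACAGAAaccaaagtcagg
OAS3 (chr12:112938304-112938473, plus strand): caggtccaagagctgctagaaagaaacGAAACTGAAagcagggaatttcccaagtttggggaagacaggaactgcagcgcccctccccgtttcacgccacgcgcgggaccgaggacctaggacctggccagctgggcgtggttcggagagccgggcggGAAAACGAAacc
TAP1 (chr6:32853705-32853874, minus strand): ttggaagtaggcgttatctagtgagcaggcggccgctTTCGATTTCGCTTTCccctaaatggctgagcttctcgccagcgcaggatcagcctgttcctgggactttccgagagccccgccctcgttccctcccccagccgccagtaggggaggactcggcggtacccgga
IRF1 is shown because its window holds the other element, with the gamma activated site, TTCNNNGAA, in capitals 124 bases before the start.
IRF1 (chr5:132490774-132490943, minus strand): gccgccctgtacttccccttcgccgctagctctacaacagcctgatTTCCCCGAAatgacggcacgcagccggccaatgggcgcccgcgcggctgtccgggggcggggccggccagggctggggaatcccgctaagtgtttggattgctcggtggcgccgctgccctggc
ISG15 and IFI6 each held 3 matches to the response element core, IFIH1 held 4, and IFIT1, OAS3 and TAP1 held 2 apiece, some of them overlapping. Over the 250 bases before a start, GAAANNGAA on either strand occurred in 22 of 38 windows of members (57.9%) and in 6.88% of 35116 windows of all genes. TTCNNNGAA, which reads the same on both strands and can share bases with the first motif, was found in 12 of the 38 windows (31.6%) and in 6.57% of all. GGGCGG, the GC box known as a site of Sp factors, occurred on either strand in 16 of the 38 (42.1%) and in 42.6% of all windows. These 38 windows came from 29 members, 8 of which had several, so windows are not separate genes. Their median GC content was 54.6%, against 58% for all windows. The matches are of letters only, and binding was not measured. SLFN5, IRF2, IRF3, IRF7, IFIT2, IFITM2, MX2, OAS2, OASL, TRIM22 and USP18 are given without a sequence.

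All values are on the log2 scale, where a difference of 1 is a 2-fold change. A gene was called where limma's adjusted p, over all 19775 genes, was under 0.05, and a member is termed dim where its mean was under 6 in all 4 groups. After mithramycin, 19 of 40 members were called higher and 4 lower in TC32, against 25.6% of all genes called higher and 19.4% called lower. In TC71, 18 were called higher and 3 lower, against 19.4% and 16.1% of all genes. The median change of the members was 0.22 in TC32 and 0.21 in TC71, and the median over all genes was 0.08 and 0.07. With arrays centred on housekeeping genes the member medians were 0.12 and 0.21, and on hybridization controls 0.07 and 0.29, with all-gene medians of −0.02 and 0.07 and of −0.07 and 0.15. In each line 33 of the 40 changes were above 0 (82.5%), as were 63.1% of those of all genes. The mean of the 40 members lay between 5.88 and 5.91 in the TC32 controls and between 6.12 and 6.17 in the treated TC32 arrays. In TC71 it lay between 5.80 and 5.81 in the controls and between 6.01 and 6.02 after treatment. Array medians over all probe sets also lay apart by treatment, at 4.382 to 4.407 against 4.413 to 4.469 in TC32. In TC71 these medians were 4.379 to 4.391 in the controls and 4.408 to 4.441 after treatment. The count of lower members turned on single arrays: it went from 4 to 2 without replicate 1 of the TC32 mithramycin group or replicate 3 of the TC32 controls, and from 3 to 1 without replicate 1 or 2 of the TC71 controls.

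**Figure D1:**
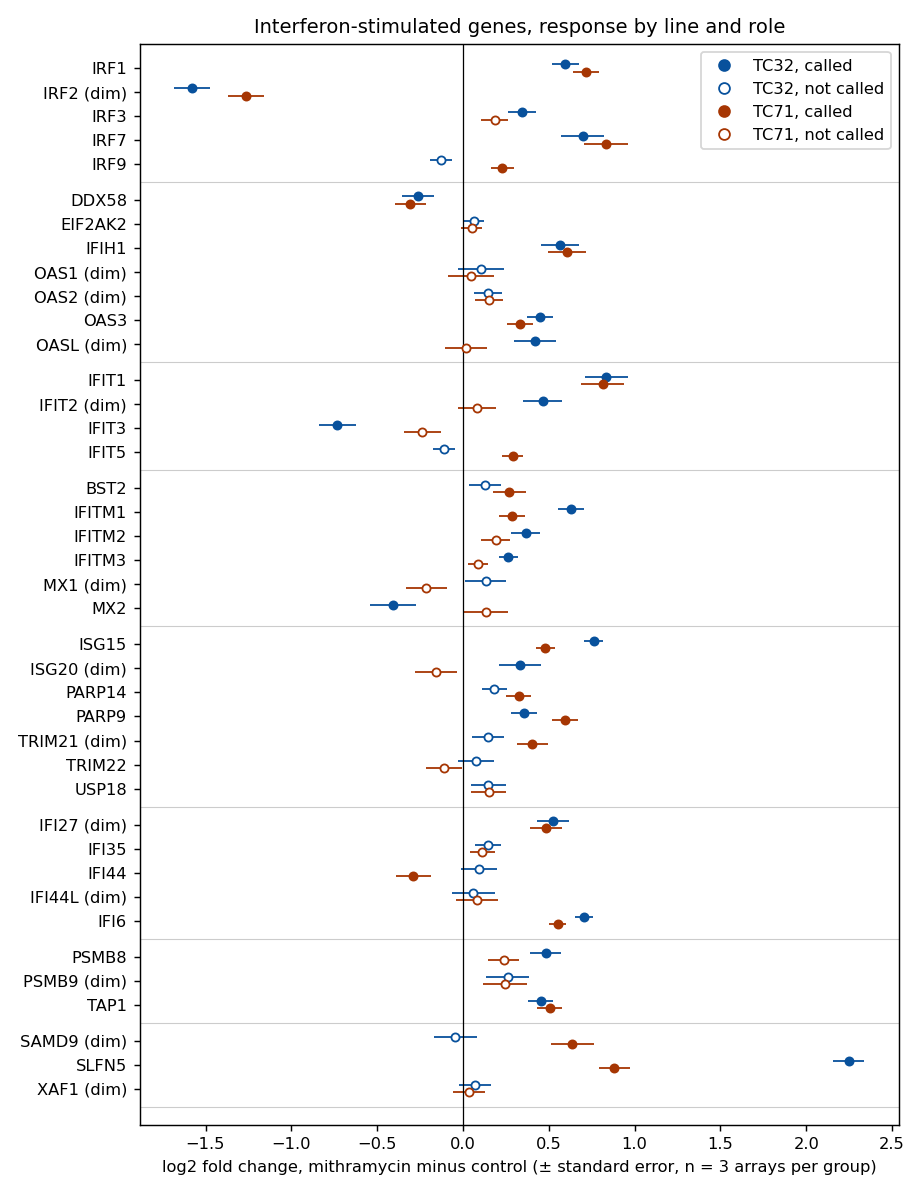
Change of each measured member after mithramycin on the log2 scale (horizontal axis), grouped by role, with bars of 1 standard error, for TC32 in blue and TC71 in brown (3 arrays per group). Filled points passed limma's test: 19 lie right of 0 and 4 left of it in TC32, and 18 and 3 in TC71, with SLFN5 in TC32 farthest right and IRF2 farthest left.

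Of the 40 members 13 were dim, so the brighter ones were also set against brighter genes. Among the 8386 genes whose mean over all arrays was at least 6, 35.4% were called higher and 36% lower in TC32, and 33.1% and 31.2% in TC71. Of the 15 members in that class, 10 were higher and 1 was lower in TC32, with a median change of 0.37 against 0.01 for the class. In TC71, 11 of these 15 were higher and 0 lower, with a median of 0.29 against 0.03.

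Across the lines, 12 members were called higher in both: IRF1, IRF7, IFIH1, OAS3, IFIT1, IFITM1, ISG15, PARP9, IFI6, IFI27, TAP1 and SLFN5. The share of all genes called higher in both lines is not given here, so this count has no background to be read against. A further 7 were called higher in TC32 alone and 6 in TC71 alone, which by itself does not show that the lines differ. IRF2 and DDX58 were called lower in both, IFIT3 and MX2 in TC32 and IFI44 in TC71. The remaining 10 members were called in neither line: EIF2AK2, OAS1, OAS2, MX1, TRIM22, USP18, IFI35, IFI44L, PSMB9 and XAF1.

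Among the interferon regulatory factors, IRF1 and IRF7 rose and IRF2 fell in both lines. IRF1 is an activator first described at the interferon beta gene, and IRF2 is its antagonist at many of the same sites. IRF1 stood at 5.45, 5.46 and 5.30 in the TC32 controls and at 5.92, 6.00 and 6.09 after mithramycin, a rise of 0.60 ± 0.08 (SE, adjusted p = 6.38e-05). In TC71 its controls read 5.16, 5.02 and 5.31 and the treated arrays 5.88, 5.91 and 5.86, a rise of 0.72 ± 0.08 (adjusted p = 1.85e-05). The treated and control arrays of IRF1 did not overlap in either line, and its dimmer second probe set moved by 0.68 and 0.79. IRF7, the factor that amplifies interferon alpha production, went from 5.82, 5.14 and 5.59 to 6.19, 6.25 and 6.19 in TC32 (0.70 ± 0.13, adjusted p = 0.000855). TC71 showed IRF7 at 5.55, 5.70 and 5.66 before and 6.46, 6.53 and 6.41 after the drug (0.83 ± 0.13, adjusted p = 0.000291). The 3 TC32 controls of IRF7 were the more scattered group, with an SD of 0.34, yet all lay under every treated array.

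IRF2 was dim throughout and is described because of the size of its fall, a choice made after its values were seen. It stood at 5.19, 4.94 and 5.32 in the TC32 controls and at 3.47, 3.56 and 3.69 after mithramycin, and it fell by 1.58 ± 0.10 (adjusted p = 1.87e-07). In TC71 it went from 4.19, 4.39 and 4.34 to 2.89, 3.16 and 3.08 and fell by 1.26 ± 0.10 (adjusted p = 1.69e-06). The difference between the lines did not pass the test (0.32 ± 0.15, adjusted p = 0.236). IRF3, the factor activated directly by nucleic acid sensing, read 6.79, 6.85 and 6.73 in the TC32 controls and 7.28, 7.12 and 7.00 after treatment (0.35 ± 0.08, adjusted p = 0.00408). In TC71, IRF3 moved by 0.18 ± 0.08, which was not called. Its TC32 call was lost when arrays were centred on housekeeping genes or on hybridization controls. IRF9, the DNA-binding partner of the STAT proteins, was at 6.42, 6.46 and 6.44 in the TC71 controls and 6.79, 6.63 and 6.60 after the drug (0.23 ± 0.06, adjusted p = 0.0151), against −0.13 ± 0.06 in TC32, not called.

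**Figure D2:**
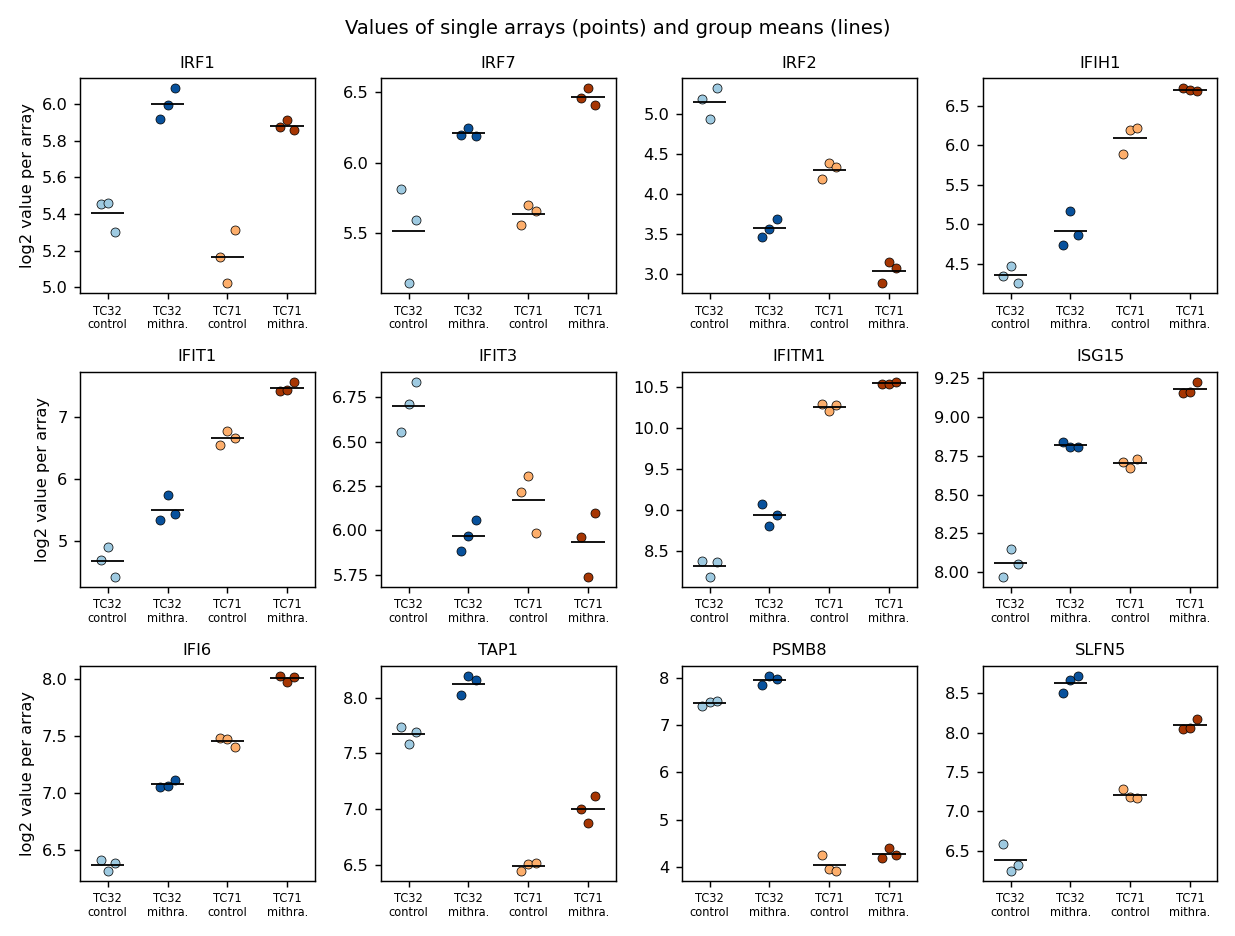
Log2 value of every array (points) and group means (lines) for 12 members in control and mithramycin-treated TC32 and TC71, each panel with its own vertical axis that does not start at 0. In IRF1, IRF7, IFIH1, IFIT1, IFITM1, ISG15, IFI6, TAP1 and SLFN5 all treated arrays lie above all controls of the same line, and IRF2 shows the reverse.

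The sensors of foreign RNA did not move as a block. IFIH1 encodes MDA5, a sensor of long double-stranded RNA, and rose in both lines. Its TC32 controls read 4.35, 4.47 and 4.26 and its treated arrays 4.74, 5.17 and 4.86 (0.56 ± 0.11, adjusted p = 0.0015). TC71 started higher, at 5.89, 6.19 and 6.22, and reached 6.72, 6.71 and 6.69 (0.61 ± 0.11, adjusted p = 0.00116). Groups did not overlap. The other sets of IFIH1 lay under 4, and the TC32 call was lost when its 3 sets were averaged. DDX58, which encodes the sensor RIG-I, was called lower at its brightest set, by −0.26 ± 0.09 in TC32 (adjusted p = 0.0347) and −0.31 ± 0.09 in TC71 (adjusted p = 0.0203). At that set the TC32 arrays went from 5.87, 5.77 and 5.76 to 5.37, 5.56 and 5.68 and the TC71 arrays from 6.20, 6.13 and 5.88 to 5.77, 5.73 and 5.79. The other sets of DDX58 gave 0.14 and −0.06 in TC32 and 0.10 and −0.05 in TC71, none called, so the gene has no settled direction. Its brightest set is of the kind with shared probes, as is the set that gave 0.14 and 0.10. EIF2AK2, which encodes the kinase PKR, lay between 8.30 and 8.82 on all 12 arrays and moved by 0.06 and 0.05, not called. A second set of EIF2AK2, of the kind with shared probes, went from 7.50 to 7.74 in TC32 (0.24 ± 0.07, adjusted p = 0.019 over all probe sets) and moved by 0.06 in TC71, and its dim set gave −0.08 and −0.01.

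OAS enzymes make the 2-5 linked oligoadenylates that switch on RNase L. OAS3 stood at 6.29, 6.51 and 6.51 in the TC32 controls and 6.89, 6.96 and 6.80 after mithramycin (0.45 ± 0.08, adjusted p = 0.000512). In TC71 it went from 5.23, 5.26 and 5.42 to 5.65, 5.68 and 5.57 (0.33 ± 0.08, adjusted p = 0.00508). A second, dim set of OAS3 gave −0.17 and −0.08, and both calls were lost when the sets were averaged. OAS1, OAS2 and OASL were dim, with changes of 0.11, 0.14 and 0.42 in TC32 and 0.05, 0.15 and 0.02 in TC71. Of these, OASL was called in TC32 (adjusted p = 0.0152). OAS1, OAS3 and OAS2 are neighbours on chromosome 12.

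IFIT1 binds viral RNA that lacks the cap modifications of the host. It and the other IFIT members, 4 neighbours on chromosome 10, gave 4 different patterns. IFIT1 rose by like amounts in both lines from different starting levels. Its TC32 controls were 4.69, 4.91 and 4.42 and its treated arrays 5.34, 5.75 and 5.43 (0.84 ± 0.13, adjusted p = 0.000193). In TC71 IFIT1 moved from 6.55, 6.78 and 6.67 to 7.42, 7.45 and 7.57 (0.81 ± 0.13, adjusted p = 0.000305), and the difference between the lines was −0.02 ± 0.18. IFIT3 fell in TC32, from 6.56, 6.71 and 6.83 to 5.88, 5.97 and 6.06 (−0.73 ± 0.11, adjusted p = 0.000173). In TC71 its arrays overlapped, at 6.22, 6.31 and 5.99 before and 5.96, 5.74 and 6.10 after (−0.24 ± 0.11, adjusted p = 0.114). A second set of IFIT3, under 6 in all groups, gave −0.19 in TC32 and 0.13 in TC71, neither called. IFIT5 was higher in TC71, from 7.36, 7.54 and 7.52 to 7.84, 7.76 and 7.68 (0.29 ± 0.06, adjusted p = 0.00318), and moved by −0.11 in TC32, not called. IFIT2 was dim and was called higher in TC32 at 0.46, against 0.08 in TC71.

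IFITM proteins sit in membranes and block the entry of enveloped viruses, and 3 of them are neighbours on chromosome 11. IFITM1 read 8.38, 8.18 and 8.37 in the TC32 controls and 9.07, 8.80 and 8.94 after mithramycin (0.63 ± 0.07, adjusted p = 2.76e-05). In TC71 it was already at 10.29, 10.20 and 10.28 and reached 10.53, 10.54 and 10.56 (0.29 ± 0.07, adjusted p = 0.0101). The smaller rise of IFITM1 in TC71 was not called different from that in TC32 (−0.34 ± 0.11, adjusted p = 0.0653). IFITM2 went from 9.58, 9.25 and 9.45 to 9.91, 9.71 and 9.75 in TC32 (0.37 ± 0.08, adjusted p = 0.00385), and IFITM3 rose there by 0.26 ± 0.06 (adjusted p = 0.00259). Both TC32 calls were lost with centring on housekeeping genes or hybridization controls, and in TC71 the changes of 0.19 and 0.09 were not called. Sequences of the 3 IFITM genes are close. The sets used for IFITM1, IFITM2 and IFITM3 all carry a suffix that marks probes shared with other transcripts, so their values may be mixed.

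MX2, a restriction factor of the nuclear pore known for its action on HIV-1, stood at 7.84, 7.87 and 8.00 in the TC32 controls and 7.46, 7.60 and 7.42 after the drug (−0.41 ± 0.13, adjusted p = 0.0246). TC71 held little of it, between 3.92 and 4.54 on its 6 arrays. Its neighbour MX1, the classic antiviral GTPase, was dim in every group and not called in either line. BST2, the tether of budding virus, was called higher in TC71 at 0.27 (adjusted p = 0.0452).

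ISG15 is a ubiquitin-like protein that is attached to many targets, and it was among the brighter members that rose. Its TC32 controls were 7.97, 8.15 and 8.05 and the treated arrays 8.84, 8.81 and 8.81, a rise of 0.76 ± 0.06 (adjusted p = 4.1e-07). In TC71, ISG15 went from 8.71, 8.67 and 8.73 to 9.16, 9.16 and 9.23, a rise of 0.48 ± 0.06 (adjusted p = 2.99e-05). USP18, which removes ISG15 from its targets and restrains receptor signalling, moved by 0.15 in both lines and was not called. PARP9 and PARP14, ADP-ribosylating proteins linked to STAT signalling and neighbours on chromosome 3, moved upward together in TC71. PARP9 rose there from 5.21, 5.37 and 5.27 to 5.99, 5.84 and 5.79 (0.59 ± 0.07, adjusted p = 6.1e-05), and PARP14 from 5.42, 5.34 and 5.22 to 5.66, 5.68 and 5.60 (0.32 ± 0.07, adjusted p = 0.00382). In TC32, PARP9 went from 5.76, 5.95 and 5.82 to 6.16, 6.29 and 6.15 (0.36 ± 0.07, adjusted p = 0.00216), and PARP14 moved by 0.18, not called. A dim second set of PARP9 gave −0.03 and −0.06. TRIM21, an antibody receptor inside cells, was dim and called higher in TC71 at 0.41, and the exonuclease ISG20 was dim and called in TC32 at 0.33 (adjusted p = 0.0437).

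IFI6, a small mitochondrial and endoplasmic reticulum protein, gave tight groups. It stood at 6.41, 6.32 and 6.39 in the TC32 controls and 7.05, 7.07 and 7.12 after mithramycin (0.70 ± 0.05, adjusted p = 3.48e-07). In TC71 the arrays went from 7.48, 7.48 and 7.41 to 8.03, 7.98 and 8.02 (0.55 ± 0.05, adjusted p = 3.9e-06). IFI27, of the same family, was dim and rose by 0.52 and 0.49. IFI35 moved by 0.15 and 0.11, not called.

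Antigen processing was represented by TAP1, a subunit of the peptide transporter, and the immunoproteasome subunits PSMB8 and PSMB9, which lie side by side in the MHC region of chromosome 6. TAP1 rose from 7.74, 7.58 and 7.69 to 8.02, 8.20 and 8.15 in TC32 (0.45 ± 0.07, adjusted p = 0.000328). In TC71 it went from 6.45, 6.51 and 6.52 to 7.00, 6.87 and 7.12 (0.50 ± 0.07, adjusted p = 0.000184). PSMB8 rose in TC32, from 7.40, 7.49 and 7.51 to 7.84, 8.04 and 7.97 (0.48 ± 0.09, adjusted p = 0.00112). In TC71, where PSMB8 lay between 3.92 and 4.41, its change of 0.24 was not called. The dim PSMB9 moved by 0.26 and 0.25, not called.

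SLFN5, a Schlafen family protein studied as a restraint on cell growth, had the largest rise among the 40 members in both lines, taken at their brightest sets. Its TC32 controls were 6.59, 6.24 and 6.32 and the treated arrays 8.50, 8.67 and 8.72, a rise of 2.25 ± 0.09 (adjusted p = 3.52e-09). In TC71 it went from 7.28, 7.18 and 7.17 to 8.04, 8.06 and 8.18, a rise of 0.88 ± 0.09 (adjusted p = 1.05e-05). The TC71 change minus the TC32 change was −1.365 ± 0.13 (adjusted p = 4.49e-05), and this difference passed the test in all 12 fits that left out 1 array, and was −0.68 with the 6 probe sets averaged (adjusted p = 9.6e-05). At its brightest set, SLFN5 began lower in TC32 and ended higher there, but not all of its sets ended higher in TC32. The treated groups were not tested against each other. The brightest set of SLFN5 carries the suffix of shared probes too. All 6 probe sets of SLFN5 rose in both lines, by 0.92 to 3.31 in TC32 and by 0.45 to 1.77 in TC71. They did not all show the difference between lines: 3 sets gave −1.07 to −1.53, all called, another gave −0.47 without a call, and the remaining sets gave 0.04 and 0.31, not called.

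**Figure D3:**
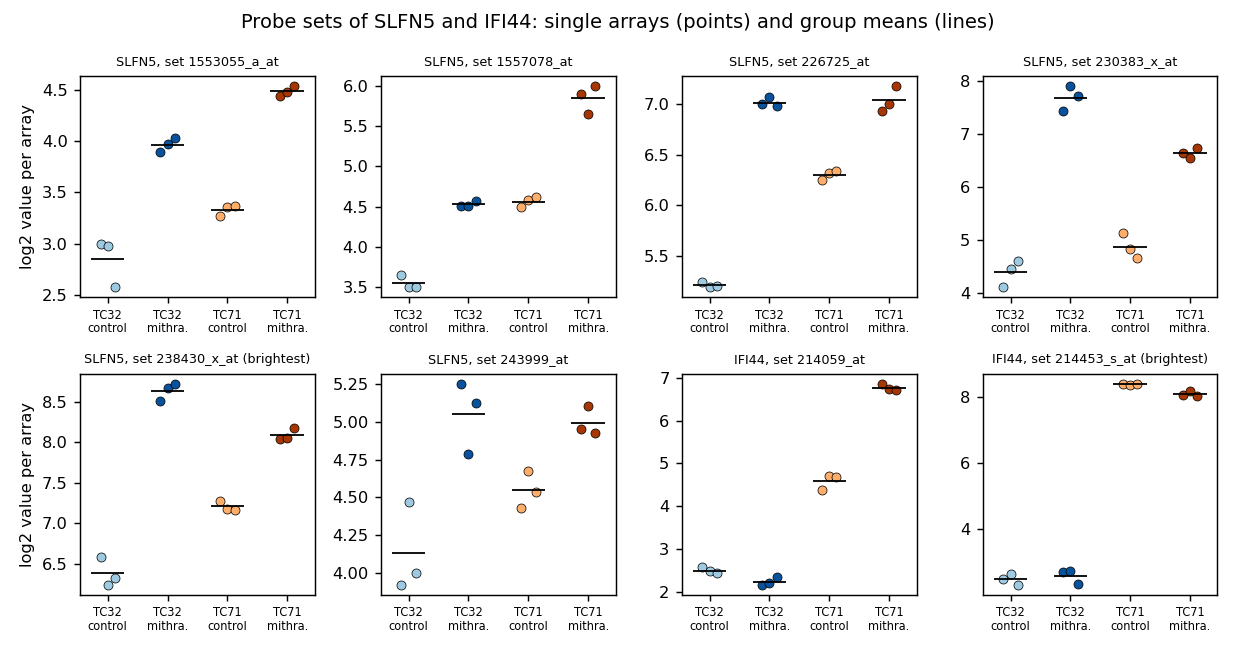
Log2 values of the 6 probe sets of SLFN5 and the 2 of IFI44 on every array (points), with group means (lines); each panel has its own vertical axis. Every SLFN5 set is higher after mithramycin in both lines, whereas the sets of IFI44 part in TC71, from 4.58 to 6.76 at one and from 8.39 to 8.10 at the other.

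IFI44, an interferon-induced protein of the cytoplasm, is described because its sets disagreed, which was seen after the values were known. At the brightest set the TC71 controls read 8.39, 8.36 and 8.41 and the treated arrays 8.06, 8.19 and 8.04 (−0.29 ± 0.10, adjusted p = 0.049). At its other set the same controls read 4.38, 4.69 and 4.67 and the treated arrays 6.86, 6.73 and 6.70, a rise of 2.18 ± 0.09 (adjusted p = 3.87e-09 over all probe sets). Both sets lay under 3 on all TC32 arrays, where the other set moved by −0.26 (adjusted p = 0.0398 over all probe sets). The direction of IFI44 in TC71 therefore depends on the probe set. SAMD9, a dim growth-restraining gene, rose in TC71 by 0.64 at its brighter set and by 0.53 at the other, and moved by −0.04 and 0.25 in TC32, neither called. XAF1, a partner of the inhibitor of apoptosis proteins, was dim and moved by 0.07 and 0.03. Its other sets, near 3, were called higher in TC32 at 0.26 and 0.24 (adjusted p = 0.0154 and 0.0462 over all probe sets) and gave 0.06 and −0.02 in TC71.

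The test of the difference itself called 3 members with the higher change in TC71 and 2 with the lower, against 6.27% and 3.72% of all genes. The first were IRF9 at 0.36 ± 0.09 (adjusted p = 0.0278), IFIT5 at 0.40 ± 0.09 (adjusted p = 0.013) and SAMD9 at 0.68 ± 0.18 (adjusted p = 0.0315), and the others ISG15 at −0.28 ± 0.08 (adjusted p = 0.0405) and SLFN5. Both sets of IFIT5 showed the difference, at 0.40 and 0.47. The shares of members, 3 and 2 of 40, lie near those of all genes, and most of these calls were lost in some fits without 1 array. In the 12 fits that left out 1 array each, the call of ISG15 was lost in 11, all but the one without replicate 2 of the TC32 controls. The call of SAMD9 was lost in 8 and that of IRF9 in 7, both among them without replicate 1 of any of the 4 groups and without any 1 of the TC71 controls, whereas IFIT5 and SLFN5 were called in all 12. The 3 higher calls became 1 and the 2 lower became 1 without replicate 1 of any group or without any 1 of the TC71 controls, and the lower also without replicate 3 of the TC32 controls or of the TC71 mithramycin group. Centring on array medians, housekeeping genes or hybridization controls also ended the call of ISG15. With beta-actin as a covariate, or with the replicate block, 0 members had a called higher change in TC71, and SLFN5 was called in both.

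Several members stood high in one untreated line and dim in the other, where the size of a difference rests on a low reading and may understate the true fold. Of the 40 members, 16 were higher and 18 lower in the TC71 controls than in the TC32 controls, against 26.7% and 24.8% of all genes. TRIM22, an antiviral ubiquitin ligase, stood at 8.48, 8.51 and 8.55 in TC32 and 2.41, 2.39 and 2.61 in TC71, a measured difference of −6.04 ± 0.11 (adjusted p = 4.94e-13). IFI44 was the opposite, at 2.48 in TC32 and 8.39 in TC71 (5.91 ± 0.10, adjusted p = 5.06e-13), though its other set read 2.49 and 4.58. MX2 averaged 7.90 in TC32 and 4.08 in TC71, and PSMB8 7.47 and 4.05. TAP1, PSMB9, BST2 and OAS3 were also lower in TC71, by −1.18, −1.44, −1.23 and −1.14. Higher in TC71 by over 1 were IFIT1 at 1.99, IFITM1 at 1.95, IFIH1 at 1.74, IFIT2 at 1.57, IFITM2 at 1.41 and IFI6 at 1.08. All 3 antigen processing members were lower in TC71, whereas the 3 IFITM genes were higher. TRIM22 stayed apart after mithramycin, with changes of 0.07 in TC32 and −0.11 in TC71, neither called.

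**Figure D4:**
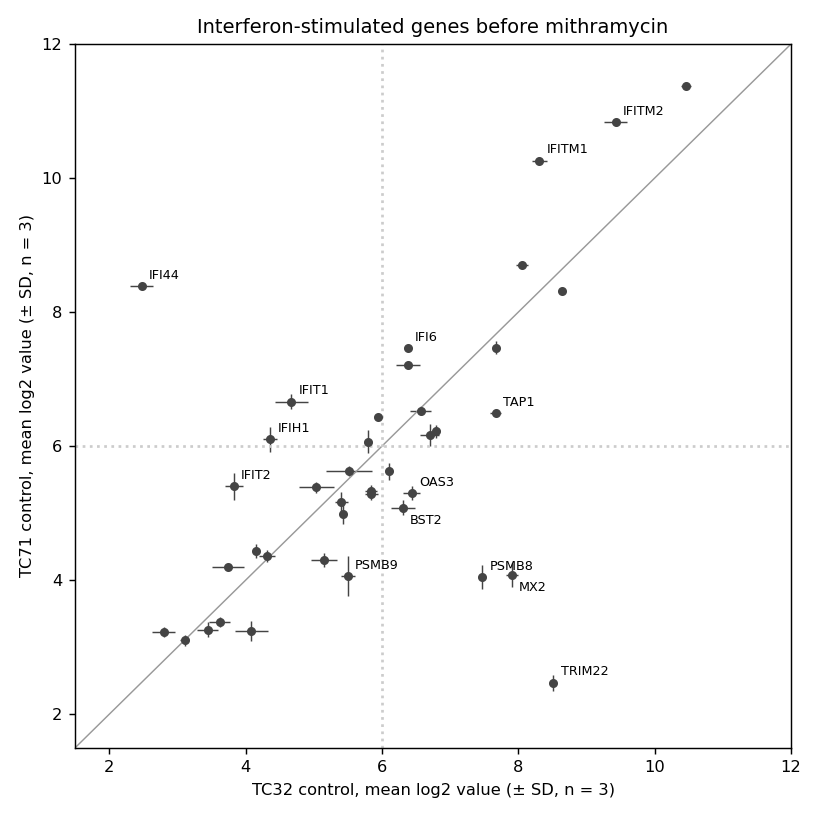
Mean log2 value of each member in untreated TC71 (vertical axis) against untreated TC32 (horizontal axis), with bars of 1 SD over 3 arrays, a diagonal of equal level and dotted lines at 6. Members that differ by at least 1 are named: TRIM22, MX2, PSMB8 and others lie far below the diagonal and IFI44 far above it.

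The members with and without a match to GAAANNGAA in their window can be set side by side. A window without these letters may still hold a response element of another spelling. Members without a window, SLFN5, IRF2 and IRF7 among them, are in neither group. Of the 19 members whose window held GAAANNGAA, 11 were called higher and 1 lower in TC32, with a median change of 0.33, and 13 and 1 in TC71, with a median of 0.32. Of the 10 whose window did not, 2 were higher and 1 lower in TC32, with a median of 0.13, and 3 and 1 in TC71, with a median of 0.17. A gene with several windows, as 8 members had, counted once, as holding a match where any window did. The difference between the medians with and without a match was not tested. For comparison, the shares over all genes, whatever their windows, were 25.6% higher and 19.4% lower in TC32. In TC71 these shares were 19.4% and 16.1%. Calls of genes outside the list whose windows hold the same letters are not given here. The counts and medians therefore have no matched background, and whether the element goes with the rise was not tested.

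The machinery upstream of the members was followed in 4 lists, of ligands, of receptors with their kinases and STATs, of nucleic acid sensors with their adaptors, and of inhibitors of signalling. In TC32, 4 of their 37 measured genes were called higher and 9 lower (10.8% and 24.3%, against 25.6% and 19.4% of all genes), and 4 higher and 7 lower in TC71 (10.8% and 18.9%, against 19.4% and 16.1%). The 8 interferon ligands measured lay under 4 in every group, and IFNW1 and IFNL1 were called higher in TC71, at 0.24 and 0.35. JAK1, the kinase shared by the interferon receptors, fell from 10.75 to 10.43 in TC32 and from 11.38 to 10.96 in TC71, by 0.32 ± 0.05 and 0.42 ± 0.05 (adjusted p = 0.000404 and 5.69e-05). IFNGR1, the ligand-binding chain for interferon gamma, rose in TC71 from 7.95 to 8.61 (0.66 ± 0.08, adjusted p = 3e-05), against 0.18 in TC32, not called. IFNAR1, a chain of the type I receptor, fell in TC32 by 0.31 ± 0.06 (adjusted p = 0.00183), IFNGR2 fell there by 0.16, TYK2 rose there by 0.25, and STAT3 fell in TC71 by 0.19. IFNAR2 and IL10RB were not called in either line.

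Further down the list, TRAF3, an adaptor between nucleic acid sensors and IRF kinases, went from 8.67 to 7.51 in TC32 and from 8.96 to 7.60 in TC71, changes of −1.16 ± 0.06 and −1.36 ± 0.06 (adjusted p = 4.35e-08 and 1.8e-08). CGAS, the sensor of DNA in the cytoplasm, fell in TC71 by 0.69 ± 0.19 (adjusted p = 0.015) from 6.39 to 5.71. In TC32, where its level was low, CGAS rose from 3.09 to 3.77 (0.68 ± 0.19, adjusted p = 0.0124), and the difference between the lines was called (−1.37 ± 0.27, adjusted p = 0.00705). Of 41 other interferon-stimulated genes measured outside the members, 13 were called higher and 5 lower in TC32 (31.7% and 12.2%, against 25.6% and 19.4% of all genes), with a median of 0.08, equal to that of all genes. In TC71, 16 of them were called higher and 1 lower (39% and 2.44%, against 19.4% and 16.1%), with a median of 0.10 against 0.07. CMPK2, a mitochondrial nucleotide kinase, rose by 0.65 and 0.54, and GBP1, a guanylate-binding GTPase, rose in TC32 by 0.70. DTX3L, the partner of PARP9, rose in TC71 by 0.60. SLFN12, of the same family as SLFN5, rose in TC71 from 6.67 to 7.62 (0.95 ± 0.13, adjusted p = 8.49e-05). In TC32 it was low and fell, from 4.01 to 3.35 (−0.66 ± 0.13, adjusted p = 0.00101), with a called difference between the lines of 1.62 ± 0.18 (adjusted p = 0.000133). PLSCR1 fell in TC32 by 0.59 ± 0.08 (adjusted p = 0.000134).

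Some calls in the lines were lost in fits without 1 array. For BST2, IFI44 and ISG20 these arrays included some of the other line, which leave the change itself as it was. In fits without 1 array, BST2 in TC71 was lost in 7 of 12, with an adjusted p of up to 0.161 and a change of 0.21 without replicate 1 of the TC71 controls. IFI44 in TC71 was lost in 7 (up to adjusted p = 0.133, without replicate 3 of the TC71 mithramycin group) and ISG20 in TC32 in 8 (up to adjusted p = 0.149, without replicate 3 of the TC32 mithramycin group). DDX58 was lost in 5 fits for TC32 (up to adjusted p = 0.136, without replicate 1 of the TC32 mithramycin group) and in 3 for TC71 (up to adjusted p = 0.0844, without replicate 1 of the TC71 controls). MX2 in TC32 was lost without replicate 1 or 3 of the TC32 mithramycin group or replicate 3 of the TC32 controls (up to adjusted p = 0.0794), and also with the replicate block. OASL in TC32 was lost without replicate 1 or 3 of the TC32 mithramycin group or replicate 2 of the TC32 controls (up to adjusted p = 0.058), and IRF9 in TC71 without replicate 1 of the TC71 mithramycin group (adjusted p = 0.0655). Centring on hybridization controls ended the TC32 calls of IFIT2, OAS3 and PARP9.

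Array medians lay between 4.38 and 4.47. The mean of 6 measured Ewing sarcoma markers was 10.12 in TC32 controls, 9.96 in treated TC32, 9.54 in TC71 controls and 9.30 in treated TC71, lower on every treated array than on any control of its line, with 2 called lower in TC32, and 3 lower and 1 higher in TC71. The 8 measured blood cell markers were all under 6, with a mean of 3.69 in TC32 controls, 3.90 in treated TC32, 3.58 in TC71 controls and 3.68 in treated TC71, and 2 were called higher in TC32. The 6 fibroblast markers averaged 5.40 and 5.45 in TC32 and 6.15 and 6.50 in TC71, with 1 and 3 called higher. The 3′ minus 5′ difference of beta-actin, a sign of RNA integrity, was 0.71 ± 0.04 in TC32 controls and 0.60 ± 0.08 after treatment (SD, n = 3, exact two-sided permutation p = 0.2), and 1.45 ± 0.48 and 0.88 ± 0.10 in TC71 (p = 0.1, the smallest this exact permutation test allows). With that difference as a covariate, 18 of the 19 members higher in TC32 and 12 of the 18 in TC71 were called again. The higher calls lost were ISG20 in TC32 and BST2, IFIH1, IFIT5, IFITM1, IRF9 and OAS3 in TC71, and DDX58 in both lines and IFI44 in TC71 were no longer called lower. The part of the marker levels in the results was not tested.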

How the data were processed

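RNA of 12 cultures was hybridized to 1-colour expression arrays. The deposited values are log2 signals per probe set, made by the authors with RMA, per the submitters' processing notes; the version is not given in the sources used here. No values were missing among 54675 probe sets. Of these, 41091 had 1 gene symbol after 62 control sets were set aside, 1801 had several and 11721 had none here; symbols were updated through RefSeq. Per gene, the set with the highest mean over the 12 arrays was kept (19775 genes). Values were fitted with limma 3.58.1 in R 4.3.3 (lmFit and eBayes, 4 group means), with Benjamini-Hochberg adjustment over all genes of a contrast and a threshold of 0.05; the script was tested on simulated data. Array values for every brighter member that was called with a change of at least 0.3 are given, with changes and counts for the rest. Pathway genes are named at a level of 6 or more with a called change of at least 0.5, and receptors, kinases and STATs at 6 or more. The members and lists were chosen with earlier results of these data known. Single arrays, probe set rules, filters, centring, normalization, a beta-actin covariate, the replicate block and the threshold were varied. The number of arrays limits the precision; no detection calls were used.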

Additional observations from a re-analysis of the deposited data

Results flagged for a closer look

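The change after mithramycin differed between TC71 and TC32 by the test of the difference (TC71 change minus TC32 change, limma, adjusted over all genes) for 5 of 40 members, 3 with a higher and 2 with a lower change in TC71, near the 6.27% and 3.72% of all genes. SLFN5 differed by −1.365 (adjusted p = 4.49e-05) and ISG15 by −0.28 (adjusted p = 0.0405). IRF9 differed by 0.36 (adjusted p = 0.0278), IFIT5 by 0.40 (adjusted p = 0.013) and SAMD9 by 0.68 (adjusted p = 0.0315). In the 12 fits without 1 array, the calls of SLFN5 and IFIT5 were kept, while that of ISG15 was lost in 11, of SAMD9 in 8 and of IRF9 in 7. Of the 5, SLFN5 alone was called with the replicate block and with the beta-actin covariate.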

How the results depend on the processing

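Of 44 calls in the lines, 36 were kept in all 12 fits that left out 1 array, and 24 in every fit of those and of the 13 other settings that could test them. Limited to genes with a mean of at least 6, 10 members were higher and 1 lower in TC32, 11 and 0 in TC71, and 8 and 6 between controls. Without sets that share probes with other transcripts, members with no other set dropped out. Among these were ISG15, IRF7, IFITM1, IFITM2, IFITM3, TAP1 and PSMB8, all called higher in TC32 with those sets. Of the members still tested, 10 were higher in TC32 and 1 lower in TC71, and 1 had a lower difference. PARP9 turned to −0.028 in TC32 and −0.062 in TC71, and IFI44 to −0.26 in TC32 and 2.18 in TC71, with a difference of 2.44. The mean of all sets turned IFI44 to 0.95 in TC71 and 1.03 in the difference, and left 1 member lower in TC71. Centring on hybridization controls took the median of all genes to −0.07 in TC32 and 0.15 in TC71, and gave 11 members higher in TC32, 1 lower in TC71, and 7 higher and 1 lower in the difference. Renewed quantile normalization gave 2 lower in TC32 and 1 in TC71. A threshold of 0.01 gave 2 and 1 lower, and 0 higher and 1 lower in the difference. The beta-actin covariate gave 1 lower in TC71, and 0 higher and 1 lower in the difference. A trended prior gave 5 and 4 in the difference, and every probe set, array medians and housekeeping genes gave 1 lower each. Without 1 array, TC32 held 2 to 4 lower members, TC71 1 to 3, and the difference 1 to 4 higher and 1 to 3 lower. Apart from the brighter genes in each line, the share of all genes called under a setting is not given here. Nor is the number of members still tested without the sets that share probes. These counts show how the calls moved and have no background to be read against.

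With the replicate block, 2 members were lower in TC32, and 0 were higher and 4 lower in the difference, again without a share of all genes. For genes with a mean of at least 6, deviations from the group mean were compared between same-numbered treated and control arrays of a line. These deviations correlated at 0.09, 0.36 and 0.06 in TC32 and −0.14, 0.12 and −0.07 in TC71, so the numbers were not taken as pairs. The causes of these changes were not tested. No detection calls were used, so how far the 13 dim members, under 6, lie above background is unknown.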
